A study of Mus musculus with 12 samples.

Results

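Sodium, chloride, proton and bicarbonate transport in the lesioned and unlesioned spinal cord of control and Tet1 mutant mice was examined through the solute carrier genes whose symbols begin with Slc4a, Slc8a, Slc8b, Slc9a, Slc12a, Slc24a or Slc26a. The count tables held 51 such genes, of 379 genes named as solute carriers. All 51 had at least 10 reads in at least 3 of the 12 libraries, all passed the filter on low counts and all were tested. By name they fell into 9 Slc12 genes, 5 Slc24 genes, 11 Slc26 genes, 11 Slc4 genes, 4 Slc8 genes and 11 Slc9 genes. The name rule also takes in Slc4a1ap, an adaptor protein, and Slc9a3r1 and Slc9a3r2, scaffold proteins that bind sodium/hydrogen exchangers, none of which carries ions itself.

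Membrane carriers of these families move sodium, chloride, protons and bicarbonate across the plasma membrane and the membranes of organelles. Slc12 proteins couple chloride to sodium and potassium and set cell volume and the chloride gradient, Slc4 proteins carry bicarbonate, Slc9 proteins exchange sodium or potassium for protons at the cell surface and in endosomes and the Golgi, Slc8 and Slc24 proteins export calcium in exchange for sodium, and Slc26 proteins carry anions including chloride, sulfate and bicarbonate. In white matter, axons, astrocytes and oligodendrocytes share the ions released by firing axons, and Slc12a2, the sodium-potassium-chloride cotransporter NKCC1, is among the carriers the study followed.

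The libraries came from mice at postnatal day 60 in 4 groups of 3. Controls (Olig1+/+;Tet1 fl/fl) and mutants (Olig1 cre/+;Tet1 fl/fl) all carried the floxed Tet1 allele, and only mutants carried cre at the Olig1 locus, so the deletion was restricted to cells of the oligodendroglial lineage. Lysolecithin (LPC), a detergent-like lipid that strips myelin, was injected into ventral white matter and the tissue was taken 4 days post-lesion (4dpl), with the opposite side of the cord as the unlesioned tissue. Cells were dissociated and enriched on a density gradient without sorting, so each library was a mixture. Total counts ranged from 34805086 to 67251544 per library. At gene level, Tet1 did not separate the genotypes: its level in CPM (read counts scaled to a common library size) was 15.02, 14.9 and 18.3 in unlesioned controls, 16.4, 9.92 and 12.1 in unlesioned mutants, 12.5, 11.7 and 12.04 in controls at 4dpl and 13.4, 10.9 and 21.5 in mutants at 4dpl. The gene-level count includes the exons outside the deleted one and the cells without cre, so it does not check the deletion. Hemoglobin and neutrophil transcripts were abundant in every library, with summed levels of 12100 to 99957 CPM for 5 red cell genes and 19331 to 105779 CPM for 4 neutrophil genes, beside 14551 to 68816 CPM for 8 oligodendrocyte genes. Because these are bulk samples, fewer cells of a type and less RNA per cell cannot be told apart.

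Levels between genes were compared per kilobase of exon (CPM per kb). The highest mean over the 12 libraries was that of the scaffold Slc9a3r1, at 62.2 CPM per kb, followed by Slc12a2 at 24.2, Slc4a1 at 21.5, Slc12a9 at 18.1, the mitochondrial sodium/calcium exchanger Slc8b1 at 17.5 and the anion exchanger Slc4a2 at 12.7. Among the Slc9 exchangers themselves the endosomal Slc9a9 led with 10.7 CPM per kb. The Slc24 genes were led by Slc24a2 at 6.87 and Slc24a3 at 1.27 CPM per kb, and the Slc26 genes by Slc26a11 at 7.48 and the sulfate carrier Slc26a2 at 3.38. At the other end, Slc9a2 had 0.043 CPM per kb. Of the 51 genes, 22 had a mean of at least 10 CPM and 29 a mean below it.

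Slc4a1, the band 3 anion exchanger of red cells, had one of the highest levels and was called in no comparison. It measured 321, 121 and 65.6 CPM in the 3 unlesioned control libraries, 124, 81.2 and 49.0 CPM in controls at 4dpl, 116, 94.9 and 45.4 CPM in unlesioned mutants and 103, 96.1 and 43.0 CPM in mutants at 4dpl. The summed red cell genes in the same order of libraries were 89184, 99957 and 34187 CPM, then 40863, 32713 and 12100, then 42729, 18229 and 25720, then 44337, 35767 and 27362. The part of red cells in the Slc4a1 level was not tested. Its change after lesion, averaged over genotypes, was −0.54 ± 0.38 (log2 ± SE) with an adjusted p of 0.25.

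The first comparison asked which of these genes differed between lesioned and unlesioned tissue. A gene was called when edgeR's quasi-likelihood p was under 0.01 and its Benjamini-Hochberg adjusted p over all 31109 genes was under 0.05. In controls, 3 of the 51 genes rose at 4dpl (5.88%, beside 5.12% of all genes tested) and 0 fell (beside 5.01%), with 11 higher and 8 lower at an unadjusted p under 0.05 (beside 13.9% and 20.1% of all genes). DESeq2 called 6 higher and 4 lower in the same comparison, beside 8.44% and 14.1% of all genes it tested. In mutants 0 of 51 genes were called in either direction, beside 0.0225% of all genes called higher and 0.113% called lower. In mutants 11 members were higher and 5 lower at an unadjusted p under 0.05 (beside 15.9% and 17.9%), and DESeq2 called 2 higher and 4 lower (beside 4.29% and 12.8%).

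The 3 genes called in controls were a potassium-chloride cotransporter and a pair of intracellular sodium/hydrogen exchangers. Slc12a7 (KCC4), which carries potassium and chloride out of cells, measured 23.1, 3.87 and 9.63 CPM in unlesioned controls and 47.0, 44.5 and 36.0 CPM in controls at 4dpl, and the groups did not overlap. Its difference was 1.80 ± 0.48 on the log2 scale (adjusted p = 0.040). In mutants it measured 16.0, 8.83 and 16.3 CPM in unlesioned tissue and 37.0, 24.1 and 20.2 CPM at 4dpl, also without overlap, a log2 difference of 0.98 ± 0.47 (adjusted p = 0.16).

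Slc9a7 (NHE7), the exchanger of the trans-Golgi network, measured 5.15, 2.74 and 4.53 CPM in unlesioned controls and 13.1, 11.4 and 10.5 CPM in controls at 4dpl. Every lesioned control library lay above every unlesioned one, and the log2 difference was 1.49 ± 0.33 (adjusted p = 0.028). In mutants the values were 6.10, 2.87 and 5.01 CPM in unlesioned tissue and 10.1, 7.22 and 7.05 CPM at 4dpl, again without overlap, with a log2 difference of 0.80 ± 0.33 (adjusted p = 0.115). Slc9a9 (NHE9), which acts in late endosomes, measured 41.7, 23.9 and 44.4 CPM in unlesioned controls and 74.3, 80.8 and 94.0 CPM in controls at 4dpl, a log2 difference of 1.18 ± 0.29 (adjusted p = 0.034). In mutants Slc9a9 measured 60.4, 31.9 and 43.2 CPM in unlesioned tissue and 85.8, 60.3 and 85.9 CPM at 4dpl, where the groups overlapped by 1 library (log2 difference 0.78 ± 0.29, adjusted p = 0.092).

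These control calls depended on single libraries. Leaving out unlesioned control replicate 2 or 3, or control 4dpl replicate 1 or 2, left 0 members called, unlesioned mutant replicate 3 left 1, and leaving out unlesioned control replicate 1 gave 15. Leaving out unlesioned mutant replicate 1 or control 4dpl replicate 3 gave 5 each, and in mutants leaving out unlesioned mutant replicate 1 gave 9 called and unlesioned control replicate 1 gave 6. Calls among all genes without each library are not given here, so these counts are not read as particular to these families.

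With both genotypes averaged, 10 of the 51 genes rose at 4dpl (19.6%, beside 14.2% of all genes) and 6 fell (11.8%, beside 18.6%). Among the genes that rose were the Golgi, endosomal and lysosomal carriers Slc9a7, Slc9a9 and Slc26a11, the potassium-chloride cotransporters Slc12a4 and Slc12a7 with the orphan family member Slc12a9, the calcium exporter Slc8a1, the sodium-bicarbonate cotransporter Slc4a7 and the sulfate carrier Slc26a2. Those that fell were the renal sodium-potassium-chloride cotransporter Slc12a1, the epithelial exchanger Slc9a3, the epithelial anion carriers Slc26a4, Slc26a7 and Slc26a9, and Slc4a11. The median log2 difference was 0.17 for the 51 genes, −0.28 for all genes tested and 0.15 for the 322 other solute carriers tested.

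The division followed level. At a mean of 10 CPM or more, 9 of 22 members rose (40.9%), and 40.9% of all 9673 genes at that level did. At that level 0 members fell, beside 0.445% of all genes. Below 10 CPM, 1 of 29 members rose (3.45%, beside 2.19% of 21436 genes) and 6 fell (20.7%, beside 26.7%). The median log2 difference of members at 10 CPM or more was 0.49, beside 0.47 for all genes at that level, and that of members below it was −0.59, beside −1.003. At both levels the share of members called was therefore near the share of all genes, and the count is not a result particular to these families. The number of genes with any read moved in the same direction, from 40023 to 44516 in the unlesioned libraries to 33964 to 37516 at 4dpl. Its part in the falls was not tested.

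**Figure D1:**
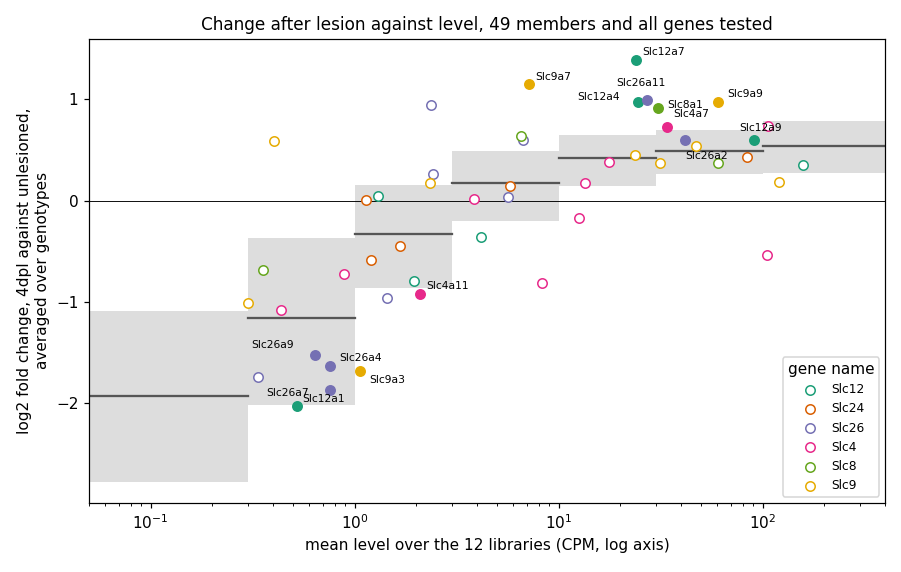
Log2 difference between 4dpl and unlesioned tissue averaged over genotypes (vertical axis) against mean level in CPM (horizontal log axis) for 49 of the 51 genes, coloured by gene name and filled where called. Grey boxes show the interquartile range of all genes tested in each range of level and dark lines their median. The 6 genes that fell lie below 3 CPM, and 8 of the 9 shown that rose lie above 10 CPM.

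The scaling of the libraries bore on these directions. The trimmed-mean (TMM) factors were 0.88 to 1.302 in unlesioned libraries and 0.81 to 0.93 at 4dpl. With library totals alone, an alternative chosen after these factors were seen, the median of all genes shifted by −0.41 on the log2 scale and 3 members were called higher and 10 lower, beside 2.56% and 28.6% of all genes. With DESeq2 the split was 9 higher and 9 lower (13.1% and 26.4% of all genes), at a median shift of −0.10. With only genes at 10 reads in every library, which left 42 members, it was 5 higher and 6 lower (10.5% and 9.94%), at a median shift of −0.29. With no filter it was 14 higher and 5 lower (10.5% and 15.2%), and in controls library totals alone gave 1 higher and 3 lower (1.52% and 7.47%). The 3 members still called higher with library totals were Slc26a11, Slc9a7 and Slc12a7, and these kept their call in all 22 alternatives run for them.

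Slc26a11, a sodium-independent sulfate carrier and chloride channel of lysosomes and plasma membrane, had the smallest p of the 51. It measured 24.9, 13.1 and 21.9 CPM in unlesioned controls, 41.3, 37.6 and 34.7 CPM in controls at 4dpl, 18.8, 11.6 and 18.3 CPM in unlesioned mutants and 25.2, 33.3 and 43.3 CPM in mutants at 4dpl. All 6 lesioned libraries lay above all 6 unlesioned libraries. The averaged log2 difference was 0.99 ± 0.20 (adjusted p = 0.0047). Slc9a7, with a difference of 1.15 ± 0.23 (adjusted p = 0.0048), was separated in the same way.

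Slc12a4 (KCC1), the widely expressed potassium-chloride cotransporter used in volume regulation, measured 21.3, 9.20 and 18.8 CPM in unlesioned controls, 33.2, 33.5 and 31.5 CPM in controls at 4dpl, 22.5, 12.4 and 15.02 CPM in unlesioned mutants and 37.4, 24.5 and 35.2 CPM in mutants at 4dpl. The 6 lesioned libraries were again above the 6 unlesioned ones (0.98 ± 0.22, adjusted p = 0.0063). The plasma membrane sodium/calcium exchanger Slc8a1 (NCX1) ranged from 9.08 to 33.7 CPM in unlesioned libraries and from 34.7 to 47.3 CPM at 4dpl (0.92 ± 0.25, adjusted p = 0.014). All 6 lesioned libraries lay above all 6 unlesioned ones for 6 of the 51 genes, beside 7.44% of all genes. They lay below for 1 gene, beside 7.42%.

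Slc12a7 (1.39 ± 0.34, adjusted p = 0.0083) and Slc9a9 (0.98 ± 0.20, adjusted p = 0.0049) also rose in the average, with overlapping libraries. Slc4a7 (NBCn1), which brings sodium and bicarbonate into cells, ranged from 17.2 to 38.1 CPM in unlesioned libraries and from 32.9 to 55.3 CPM at 4dpl (0.73 ± 0.21, adjusted p = 0.017). The smallest rises were those of Slc12a9 (0.60 ± 0.18, adjusted p = 0.020) and Slc26a2 (0.59 ± 0.19, adjusted p = 0.025), both with overlapping libraries. Slc12a9 lost its call in 10 and Slc26a2 in 12 of 22 alternatives. With library totals alone Slc12a4, Slc9a9, Slc8a1 and Slc4a7 lost theirs too, with differences from 0.34 to 0.58.

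**Figure D2:**
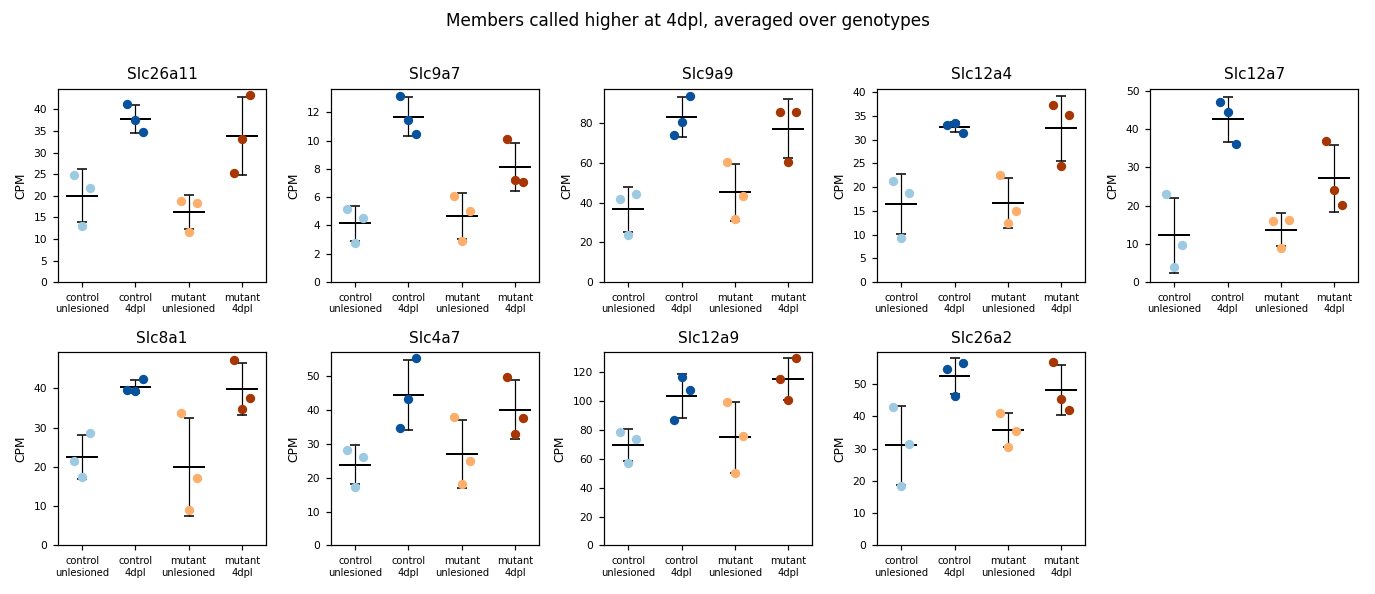
Level in CPM (vertical axes, from 0) of 9 of the 10 genes that rose at 4dpl in the average over genotypes, in each library of the 4 groups; bars give the group mean and SD of 3 libraries. In Slc26a11, Slc9a7, Slc12a4 and Slc8a1 every 4dpl library lies above every unlesioned one.

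Marker genes of several cell types moved with the lesion as well. Their counts stand beside 14.2% of all genes called higher and 18.6% called lower. At a mean of 10 CPM or more these shares of all genes were 40.9% and 0.445%. Of 6 microglial genes 5 were called higher, and their summed level was 2160 to 8380 CPM in unlesioned libraries and 7518 to 12624 CPM at 4dpl. Of 8 oligodendrocyte genes 2 were called higher, of 5 progenitor genes 3, of 7 macrophage and monocyte genes 3 and of 6 astrocyte genes 2, with 0 lower in each list. Of 4 fibroblast genes 2 were called higher and 1 lower, of 3 Schwann cell genes 2 lower and of 6 neuronal genes 1 lower, while 0 red cell, neutrophil, B cell, endothelial and ependymal genes were called. The summed astrocyte genes ranged from 156 to 309 CPM in unlesioned libraries and from 305 to 614 CPM at 4dpl. In controls the summed neutrophil genes ranged from 40490 to 85910 CPM in unlesioned libraries and from 26007 to 32203 CPM at 4dpl, without overlap. In mutants they ranged from 26782 to 105779 CPM and from 19331 to 96868 CPM, with overlap. The part of these cell types in the 10 rises was not tested.

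The 6 genes that fell all had low mean levels. Slc12a1 (NKCC2), the cotransporter of the kidney's thick ascending limb, measured 0.357, 1.04 and 0.684 CPM in unlesioned controls, 0.122, 0.139 and 0.253 CPM in controls at 4dpl, 0.700, 0.788 and 1.45 CPM in unlesioned mutants and 0.341, 0.161 and 0.198 CPM in mutants at 4dpl. Its largest count in any library was 64 reads, and it was the gene with every 4dpl library below every unlesioned one (−2.03 ± 0.43, adjusted p = 0.0054). Slc9a3 (NHE3), an exchanger of gut and kidney epithelium, measured 0.695, 2.02 and 1.97 CPM in unlesioned controls, 0.262, 0.243 and 0.852 CPM in controls at 4dpl, 1.47, 2.27 and 1.29 CPM in unlesioned mutants and 0.477, 0.456 and 0.755 CPM in mutants at 4dpl. Its log2 difference was −1.68 ± 0.41 (adjusted p = 0.0084), and 2 lesioned libraries lay above 1 unlesioned library.

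The Slc26 genes that fell encode epithelial anion carriers. Slc26a4 (pendrin) ranged from 0.737 to 1.505 CPM in unlesioned libraries and from 0.105 to 0.902 CPM at 4dpl (−1.64 ± 0.48, adjusted p = 0.017). Slc26a9 ranged from 0.391 to 1.45 CPM and from 0.156 to 0.455 CPM (−1.52 ± 0.41, adjusted p = 0.013). Slc26a7 ranged from 0.676 to 2.06 CPM and from 0.0539 to 1.09 CPM (−1.87 ± 0.61, adjusted p = 0.026), and Slc4a11, a proton and water carrier of corneal endothelium, from 1.72 to 5.03 CPM and from 0.818 to 1.91 CPM (−0.92 ± 0.30, adjusted p = 0.026). Slc26a7 lost its call in 10 of 21 alternatives and Slc4a11 in 14 of 22. Slc12a1 and Slc9a3 kept theirs in all 21 and 22 alternatives run.

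**Figure D3:**
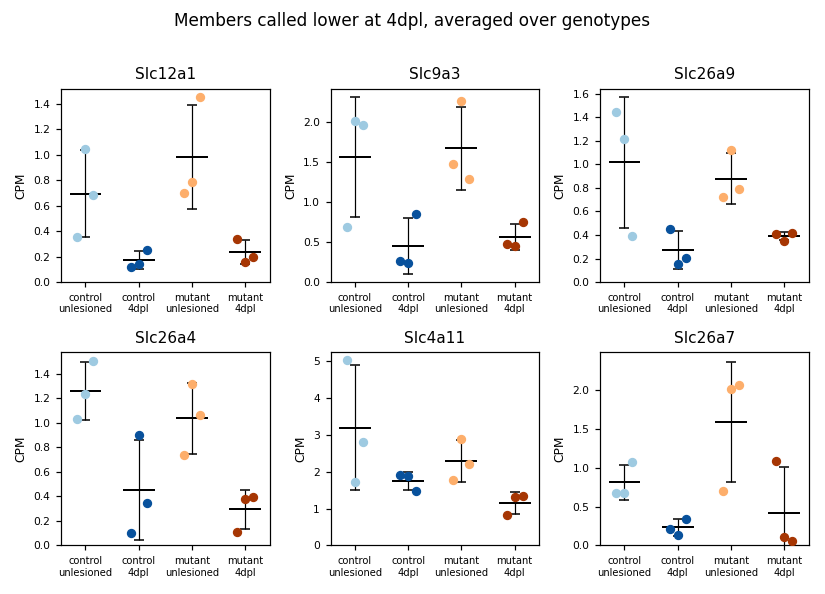
Level in CPM (vertical axes, from 0) of the 6 genes that fell at 4dpl in the average over genotypes, in each library of the 4 groups; bars give the group mean and SD of 3 libraries. Every value of Slc12a1, Slc9a3, Slc26a9, Slc26a4 and Slc26a7 is under 3 CPM.

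The other 35 genes were not called. Several well expressed carriers were among them. Slc4a2 (AE2), the chloride/bicarbonate exchanger, ranged from 47.4 to 121 CPM in unlesioned libraries and from 94.8 to 234 CPM at 4dpl (0.74 ± 0.25, adjusted p = 0.032, with an unadjusted p above the limit). It was called in 9 of 22 alternatives. Slc8b1 (0.37 ± 0.21, adjusted p = 0.17), Slc24a2 (0.43 ± 0.27, adjusted p = 0.21), Slc12a2 (0.35 ± 0.28, adjusted p = 0.31) and Slc9a3r1 (0.18 ± 0.20, adjusted p = 0.49) were not called, and with library totals alone each of these 4 differences was below 0. None of the 5 Slc24 genes had an adjusted p under 0.14. Reads of genes on the opposite strand could add to Slc9a7, Slc9a9, Slc12a4, Slc8a1, Slc12a1, Slc4a2, Slc24a3 and Slc9a4, each of which overlaps an antisense gene in the annotation.

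Promoters of genes called in each direction are shown because TET1 oxidises methylated cytosine, most of which lies in CG dinucleotides. RefSeq windows of 300 bases (250 before to 50 after an annotated start, GRCm38.p6) were available for 38 of the 51 genes. Printed 5′ to 3′ on the strand of the gene, with CG in capitals, are the windows of the 3 genes called in controls and of the pair of genes with the smallest p among those that fell. For Slc9a7 (minus strand, gene at chrX:20105754-20291807) the window is chrX:20291778-20292077, for Slc9a9 (plus strand, gene at chr9:94669909-95230445) chr9:94669642-94669941, for Slc12a7 (plus strand, gene at chr13:73733094-73816754) chr13:73763410-73763709, the first of 2 overlapping windows inside the gene's annotated span, for Slc12a1 (plus strand, gene at chr2:125152505-125230002) chr2:125152350-125152649, and for Slc9a3 (plus strand, gene at chr13:74121457-74169442) chr13:74121163-74121462.
Slc9a7: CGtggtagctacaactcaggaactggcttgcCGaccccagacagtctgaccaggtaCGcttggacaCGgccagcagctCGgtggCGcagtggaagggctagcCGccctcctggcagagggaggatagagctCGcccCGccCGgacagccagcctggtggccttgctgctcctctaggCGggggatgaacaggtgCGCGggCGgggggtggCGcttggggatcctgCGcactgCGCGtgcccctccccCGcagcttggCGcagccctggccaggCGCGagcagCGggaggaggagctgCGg
Slc9a9: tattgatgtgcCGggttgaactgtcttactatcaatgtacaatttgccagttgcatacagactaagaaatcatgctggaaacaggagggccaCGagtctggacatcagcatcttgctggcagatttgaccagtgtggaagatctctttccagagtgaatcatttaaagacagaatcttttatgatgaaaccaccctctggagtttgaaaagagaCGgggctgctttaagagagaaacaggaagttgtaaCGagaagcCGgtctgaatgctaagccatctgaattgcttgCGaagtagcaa
Slc12a7: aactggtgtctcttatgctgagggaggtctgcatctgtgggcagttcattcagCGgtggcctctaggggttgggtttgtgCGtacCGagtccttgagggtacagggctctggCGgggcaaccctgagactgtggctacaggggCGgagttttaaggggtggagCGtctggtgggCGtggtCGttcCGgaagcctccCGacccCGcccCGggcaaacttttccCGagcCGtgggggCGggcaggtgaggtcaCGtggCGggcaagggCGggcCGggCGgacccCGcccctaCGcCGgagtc
Slc12a1: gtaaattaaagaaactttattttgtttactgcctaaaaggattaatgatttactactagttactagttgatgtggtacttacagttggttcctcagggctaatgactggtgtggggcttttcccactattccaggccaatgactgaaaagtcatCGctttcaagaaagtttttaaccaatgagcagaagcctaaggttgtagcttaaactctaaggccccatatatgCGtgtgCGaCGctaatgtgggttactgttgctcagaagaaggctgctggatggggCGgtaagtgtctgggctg
Slc9a3: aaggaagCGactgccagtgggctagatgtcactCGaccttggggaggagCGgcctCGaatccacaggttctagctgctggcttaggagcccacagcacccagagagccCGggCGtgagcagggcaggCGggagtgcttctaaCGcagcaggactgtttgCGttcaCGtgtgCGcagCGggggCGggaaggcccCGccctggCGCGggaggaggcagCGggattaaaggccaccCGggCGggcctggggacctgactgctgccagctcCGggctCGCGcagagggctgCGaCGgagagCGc

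These windows held 24 CG in Slc9a7, 6 in Slc9a9, 23 in Slc12a7, 5 in Slc12a1 and 25 in Slc9a3. Over all 32851 windows the median was 7, and 20.0% held at least as many as Slc9a7, 56.4% as Slc9a9, 21.5% as Slc12a7, 62.0% as Slc12a1 and 18.4% as Slc9a3. Taking the richest window of each gene, the 7 genes that rose and have a window held 2 to 27 CG, with a median of 19, the 4 that fell held 5 to 25, with a median of 5.5, and the 27 not called held 1 to 50, with a median of 14. The ranges were wide and overlapped, and no methylation was measured in these libraries.

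The second question was whether Tet1 mutants differed from controls. In unlesioned tissue 0 of the 51 genes were called, beside 0% of all 31109 genes. In edgeR 0 members had an unadjusted p under 0.05, beside 534 higher and 1090 lower of all genes. DESeq2 also called 0 members, beside 0.145% of all genes. The smallest p values belonged to Slc4a5, Slc4a1 and Slc26a3. Slc4a5 (NBCe2), a sodium-bicarbonate cotransporter of choroid plexus, measured 1.43, 1.66 and 1.35 CPM in unlesioned controls and 0.866, 1.07 and 0.362 CPM in unlesioned mutants, without overlap (−0.94 ± 0.49, adjusted p = 0.99). Slc4a1 differed by −0.98 ± 0.54 and Slc26a3, a chloride/bicarbonate exchanger of colon, by 0.99 ± 0.55, both with adjusted p of 1.

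At 4dpl 0 members were called either, beside 0% of all genes, and DESeq2 called 0 members, beside 0.731% of all genes. At an unadjusted p under 0.05, Slc9a3r2 and Slc12a2 were higher in mutants and Slc9a4 was lower. Of all 31109 genes, 1602 were higher and 551 lower at the same limit. Slc9a3r2 (NHERF2), a PDZ scaffold of sodium/hydrogen exchangers, measured 17.3, 16.7 and 17.1 CPM in controls at 4dpl and 24.5, 37.5 and 55.8 CPM in mutants at 4dpl, so that every mutant library lay above every control library. Its log2 difference was 1.21 ± 0.32 (adjusted p = 0.31 in edgeR and 0.062 in DESeq2). In unlesioned tissue it measured 23.4, 12.8 and 18.4 CPM in controls and 25.3, 12.99 and 20.9 CPM in mutants, which overlapped.

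Slc12a2 measured 103, 126 and 137 CPM in controls at 4dpl and 133, 160 and 428 CPM in mutants at 4dpl, with overlap between 133 and 137 CPM. The log2 difference was 0.98 ± 0.40 (adjusted p = 0.60). In unlesioned tissue the values were 113, 146 and 170 CPM in controls and 175, 85.4 and 118 CPM in mutants (−0.18 ± 0.39, adjusted p = 1). The Slc12a2 difference at 4dpl rested on mutant 4dpl replicate 3, since without that library it was 0.26 ± 0.31 (adjusted p = 1). For Slc9a3r2 it was 0.86 ± 0.32 (adjusted p = 0.81) without the same library, and the other mutants at 4dpl still lay above every control. The same library had a summed level of 68816 CPM for the 8 oligodendrocyte genes, beside 25489 and 28671 CPM in the other mutants at 4dpl and 23393 to 34263 CPM in controls at 4dpl. The part of oligodendrocyte RNA in these values was not tested.

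**Figure D4:**
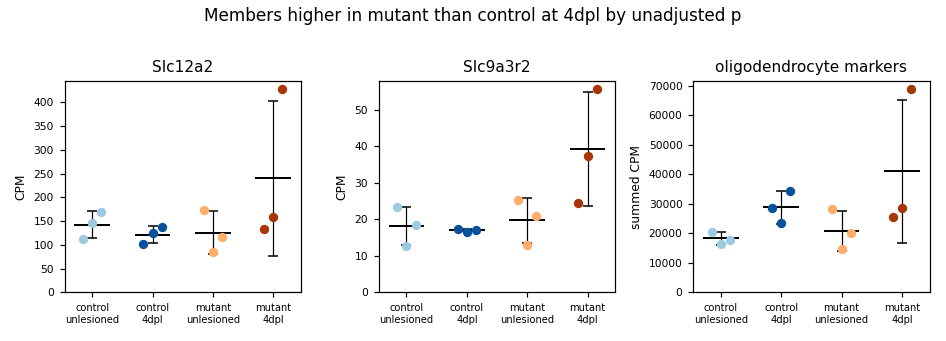
Levels of Slc12a2 and Slc9a3r2 in CPM and summed CPM of 8 oligodendrocyte genes (vertical axes, from 0) in each library of the 4 groups; bars give the group mean and SD of 3 libraries. Mutant 4dpl replicate 3 is the highest library in all 3 panels, at 428, 55.8 and 68816.

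Slc9a4 (NHE4), an exchanger of stomach and kidney epithelium, measured 0.455, 1.01 and 1.04 CPM in controls at 4dpl and 0.296, 0.161 and 0.180 CPM in mutants at 4dpl (−1.96 ± 0.88, adjusted p = 0.70), with at most 58 reads in any library.

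The difference between genotypes in the change after lesion was tested for each gene. It was called for 0 of the 51 members, beside 0% of all genes, and DESeq2 also called 0 members. In edgeR 1 member, Slc9a3r2, had an unadjusted p under 0.05, beside 828 higher and 356 lower of all 31109 genes. For Slc9a3r2 the change after lesion was −0.097 ± 0.32 in controls and 0.99 ± 0.32 in mutants, a difference of 1.09 ± 0.45 (adjusted p = 1). For Slc12a2 it was −0.23 ± 0.39 in controls and 0.93 ± 0.40 in mutants, a difference of 1.16 ± 0.56 (adjusted p = 1), and 0.44 ± 0.42 without mutant 4dpl replicate 3. Slc4a5 changed by −1.39 ± 0.50 on the log2 scale in controls and −0.061 ± 0.49 in mutants, neither of them called, and these differed by 1.33 ± 0.69 (adjusted p = 1). The 3 genes called in controls were therefore not shown to differ from the mutants, with differences of −0.82 ± 0.66 for Slc12a7, −0.69 ± 0.46 for Slc9a7 and −0.40 ± 0.40 for Slc9a9.

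**Figure D5:**
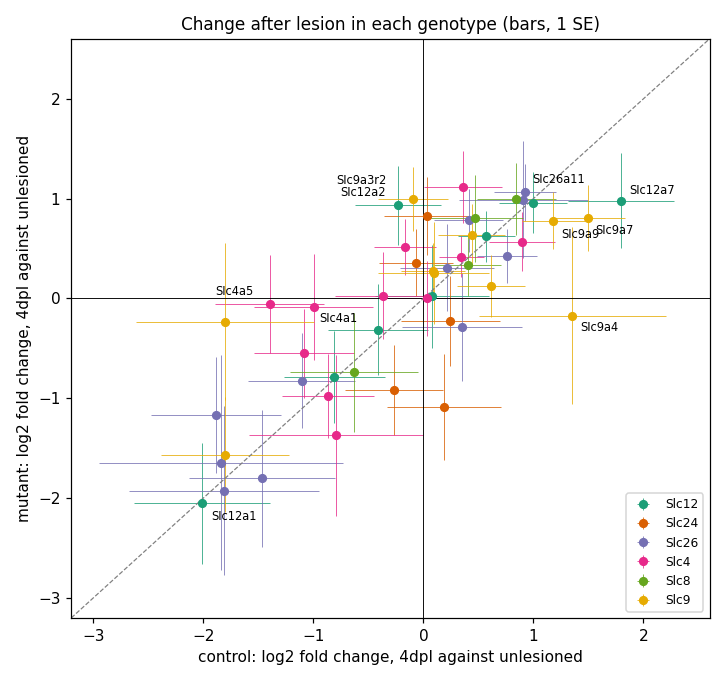
Log2 difference between 4dpl and unlesioned tissue in controls (horizontal axis) and mutants (vertical axis) for 49 of the 51 genes, coloured by gene name, with bars of 1 SE; the dashed line marks equal change. Slc12a7, at 1.80 in controls and 0.98 in mutants, lies below the line, and Slc12a2, at −0.23 and 0.93, above it.

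Proteins that work with these carriers were described from a list of 42 genes, of which 41 were tested. In controls Fxyd6 and Clcn7 rose and Slc9c1 fell. DESeq2 called 3 higher and 2 lower in controls (8.44% and 14.1% of all genes), and voom 8 higher and 4 lower. In mutants 0 were called, with 12 higher and 4 lower at an unadjusted p under 0.05 in edgeR (15.9% and 17.9% of all genes). DESeq2 called 3 higher and 3 lower in mutants (4.29% and 12.8% of all genes), and voom 5 higher and 4 lower. In the average over genotypes 8 rose (beside 14.2% of all genes) and 4 fell (beside 18.6%), and nothing particular to the list is read from these counts. Of 9 sodium pump genes, which keep the sodium gradient the carriers use, 4 rose, among them the beta subunit Atp1b3 (0.76 ± 0.21, adjusted p = 0.015) and the regulators Fxyd6 (0.90 ± 0.26, adjusted p = 0.017) and Fxyd7 (1.304 ± 0.35, adjusted p = 0.013). Of 9 chloride and volume channel genes, Clcn7, the lysosomal chloride/proton exchanger, and Clcn3, its endosomal relative (0.67 ± 0.21, adjusted p = 0.022), rose. Clcn7 measured 90.7, 37.9 and 51.8 CPM in unlesioned controls, 172, 159 and 156 CPM in controls at 4dpl, 78.7, 43.5 and 59.3 CPM in unlesioned mutants and 139, 108 and 112 CPM in mutants at 4dpl, without overlap between lesioned and unlesioned libraries (1.21 ± 0.22, adjusted p = 0.0033).

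Of 8 genes of the chloride-sensing kinase cascade, which phosphorylates Slc12 cotransporters, the adaptor Cab39l rose (0.56 ± 0.16, adjusted p = 0.016) and the kinases Wnk2 (−0.95 ± 0.30, adjusted p = 0.023) and Wnk3 (−0.95 ± 0.30, adjusted p = 0.023) fell. Of 6 carbonic anhydrases, which supply bicarbonate and protons, Car13 rose (1.18 ± 0.33, adjusted p = 0.015), and 0 of the 6 cofactors of sodium/hydrogen and bicarbonate exchange tested were called. Outside the name rule, the sperm-type exchanger Slc9c1 (−2.98 ± 0.45, adjusted p = 0.0022) and its relative Slc9b1 (−1.54 ± 0.35, adjusted p = 0.0069) fell, both from under 3 CPM. Between genotypes edgeR called 0 partners in unlesioned tissue, at 4dpl or in the difference of the changes. At an unadjusted p under 0.05 these comparisons had 3 higher and 0 lower, 4 higher and 2 lower, and 2 higher and 3 lower. Of all 31109 genes, 534 were higher and 1090 lower, 1602 and 551, and 828 and 356, in the same order. DESeq2 called 1 partner higher in unlesioned mutants (Fxyd6), beside 0.145% of all genes called. At 4dpl it called 2 (Stk39 and Cab39), beside 0.731%, and voom called 0 partners. Fxyd6 measured 3.06, 2.66 and 2.48 CPM in unlesioned controls and 7.96, 9.21 and 5.12 CPM in unlesioned mutants, without overlap (1.44 ± 0.38, adjusted p = 0.69 in edgeR). The change of Fxyd6 after lesion was 1.67 ± 0.38 in controls and 0.14 ± 0.37 in mutants. These changes were not shown to differ, with a difference of −1.53 ± 0.53 (adjusted p = 1).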

How the data were processed

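Libraries were paired-end RNA-seq of dissociated, gradient-enriched spinal cord cells, 3 per group. The deposited files hold raw read counts per gene, which the authors produced on mouse genome GRCm38 (mm10) with Ensembl identifiers. The study's methods name BWA and featureCounts as aligner and counter, the submitters' processing notes name STAR, and the strand setting is not given in the sources used here, so reads of overlapping antisense genes cannot be told apart. The study's methods describe 3 biological replicates per condition, and p-values measure the spread between these libraries. The labels do not say which lesioned and unlesioned libraries share a mouse.

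Counts were analysed with edgeR 4.0.16 in R 4.3.3: filterByExpr over the 4 groups (31109 genes kept), TMM scaling, a mean per group, and quasi-likelihood F tests of contrasts, called at p under 0.01 and Benjamini-Hochberg adjusted p under 0.05, the study's limits. SE is the log2 fold change divided by the square root of F. CPM are TMM-scaled. Tests were checked on simulated counts. Alternatives used DESeq2 1.42.0, limma 3.58.1 voom, other scalings, filters and blocks, and each library left out. Members, partner and marker lists were chosen with earlier results of these data known. Named members were those called, the highest 2 per family by level, Slc12a2, the 10 smallest p after lesion and the 3 smallest in each genotype comparison. Single results on some genes are not reported here, though counts include them. On the partner list, Pdzk1 was too low to test and Glialcam was matched through its RefSeq name Hepacam. Depth was 34805086 to 67251544 counts per library.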

Additional observations from a re-analysis of the deposited data

How the results depend on the processing

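For control 4dpl against unlesioned, the count of members called was 3 as reported. It was 11 at an adjusted p under 0.10 with no limit on the unadjusted p. It was 10 with DESeq2, 6 with no filter, 5 with 10 reads in every library and 9 with the newer quasi-likelihood method. The replicate block by label number gave 9, voom 22, and leaving out a library 0 to 15. Calls among all genes moved too, from 1592 higher and 1558 lower to 2620 and 4376 with DESeq2. They were 1989 and 1593 with no filter, and 679 and 616 with 10 reads in every library. Calls among all genes are not given for the other settings, so these counts are not read as particular to the members. For mutants the count of 0 became 10 at an adjusted p under 0.10 with no limit on the unadjusted p. It became 6 (DESeq2), 1 (no filter), 3 (newer method) and 9 (voom), and 0 to 9 when a library was left out. For the average over genotypes the count of 16 became 26 at an adjusted p under 0.10 with no limit on the unadjusted p, and 11 to 22 when a library was left out. Counts between genotypes were 0 in every alternative. Where an arm had lost a library, the spread was estimated over all groups.

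The sign of the averaged change after lesion reversed with library totals alone (no scaling) for Slc12a2 (−0.080), Slc24a2 (−0.00060), Slc24a3 (−0.28), Slc26a3 (−0.36), Slc8b1 (−0.0069) and Slc9a3r1 (−0.21), with 10 reads in every library for Slc24a3 (−0.16), Slc26a3 (−0.26) and Slc9a3r1 (−0.11), with voom for Slc24a3 (−0.055), and with DESeq2 and with RLE factors for Slc26a3 (−0.060 each). None of these was called. With a library left out the averaged change spanned −0.064 to 0.28 for Slc24a3 and −0.17 to 0.27 for Slc26a3, and the unlesioned genotype difference of Slc12a2 spanned −0.50 to 0.037. The cause was not tested. RLE factors shifted the median of all genes by −0.14 in mutants. Of 920 alternative values of single members, 809 kept direction and call.

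Correlations of the deviations of same-numbered libraries ran from −0.07 to 0.19 between conditions by label number and from −0.089 to −0.023 by the study's numbering. With 3 libraries per group, these values cannot decide whether same-numbered libraries share a mouse. The replicate block by label number gave 19 members called in the average and 0 in mutants, and by the study's own numbering 13 in the average and 2 in controls.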

Other observations

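Among the partner genes, Stk39 and Cab39, from the kinase cascade that activates Slc12a2, gave the smallest p values between genotypes at 4dpl. The genes described here were chosen after their values were seen. Of the 8 cascade genes listed, 2 had an unadjusted p under 0.05. In mutants 6 of the 8 were higher and 2 lower, with a lowest log2 difference of −0.81. Stk39 (SPAK), the kinase that phosphorylates Slc12a2, measured 11.7, 14.1 and 13.5 CPM in controls at 4dpl and 23.1, 36.1 and 82.7 CPM in mutants at 4dpl, beside 36.6, 29.8 and 22.9 CPM in unlesioned controls and 27.2, 23.0 and 25.6 CPM in unlesioned mutants. The mutant libraries lay above the control libraries at 4dpl in 3 of 3 libraries (log2 difference 1.85 ± 0.37), with an adjusted p of 0.18 in edgeR, 0.0024 in DESeq2 and 0.096 with voom, and 1.17 ± 0.26 (adjusted p = 0.65) without mutant 4dpl replicate 3. The difference in its change after lesion was 2.09 ± 0.51 (adjusted p = 1 in edgeR and 0.29 in DESeq2).

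Cab39 (MO25), the scaffold that activates this kinase, measured 53.2, 53.5 and 60.1 CPM in controls at 4dpl and 101, 132 and 162 CPM in mutants at 4dpl. The log2 difference was 1.24 ± 0.29 (adjusted p = 0.23 in edgeR and 0.020 in DESeq2) and 1.06 ± 0.31 (adjusted p = 0.71) without mutant 4dpl replicate 3. Ahcyl1 (IRBIT), a regulator of sodium-bicarbonate cotransporters, measured 60.9, 52.6 and 69.6 CPM in controls at 4dpl and 100.3, 105 and 186 CPM in mutants (1.10 ± 0.31, adjusted p = 0.34 in edgeR and 0.090 in DESeq2), and 0.75 ± 0.31 (adjusted p = 0.85) without mutant 4dpl replicate 3. In unlesioned tissue Cab39 ranged from 60.5 to 112 CPM in controls and from 80.1 to 136 CPM in mutants, and Ahcyl1 from 44.9 to 91.0 and from 66.3 to 91.2 CPM.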
